A study of Homo sapiens with 4 samples.

Results

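AP-1 is a dimeric transcription factor built from JUN and FOS family subunits, and the 8 genes described here encode 3 JUN proteins (JUN, JUNB and JUND), 4 FOS proteins (FOS, FOSB, FOSL1 and FOSL2) and ATF3, a stress-induced factor that pairs with JUN proteins. They were taken by gene symbol from a deposited table of 20289 genes, each symbol matched 1 row, and all 8 were among the 11843 genes that reached 20 counts somewhere. RNA came from SUM159-R, a paclitaxel-resistant derivative of SUM159, which is a human triple-negative breast cancer line; the labels give its genotype as WT and a maintenance dose of 150 nM paclitaxel. The cells were kept for 24 h with 2.5 µM enzastaurin and 500 nM paclitaxel together (the combination), with 500 nM paclitaxel, with 2.5 µM enzastaurin, or with DMSO, the solvent control. Enzastaurin is an inhibitor of protein kinase C (PKC), and paclitaxel stabilises microtubules. The sources used here do not say whether the DMSO and enzastaurin cells were taken off the maintenance paclitaxel, or whether SUM159-R is 1 clone or a pool.

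JUN and FOS subunits share a basic region that contacts DNA and a leucine zipper that joins the partners. FOS proteins bind DNA only as partners of another subunit, while JUN proteins can also pair with each other. FOS, FOSB, JUNB and ATF3 are classical early-response genes whose transcripts are made within minutes of a stimulus and decay fast. FOSL1, which encodes FRA-1, is known for lasting expression in mesenchymal-like and triple-negative breast cancer cells, and its transcription lies downstream of the ERK and PKC pathways. JUN activity is raised through phosphorylation by JUN N-terminal kinases, and phorbol esters, which activate PKC, gave the AP-1 motif its older name of TPA response element.

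Each condition had 1 library, so no value below has a replicate error and no p was computed. Totals ran from 18236527 counts in the combination to 24699948 in paclitaxel. Levels are in CPM, counts scaled to library size with TMM factors, with exact 95% Poisson intervals in parentheses, and ratios carry 95% intervals for counting error only. A 2-fold rule was used to name differences: a ratio of 2 or more either way, an interval that excludes no change, and at least 20 counts in the higher library. The libraries matched the labelled line in that ESR1 was at 0.00 to 0.03 FPKM, PGR had 0 counts in all 4, and VIM stood at 1948 to 2508 FPKM. ERBB2 was present at 19.0 to 24.97 FPKM, and CDH1 and EPCAM did not exceed 0.20 FPKM. The blood and endothelial markers PTPRC and PECAM1 did not exceed 0.51 FPKM.

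FOSL1 supplied more than any other subunit in all 4 libraries. Levels of different genes are compared here in the deposited FPKM, which is scaled for transcript length. FOSL1 (FRA-1) stood at 177 FPKM in the combination, 155 in paclitaxel, 139 in enzastaurin and 167 in DMSO. In DMSO only 384 of the 14204 genes with an FPKM above 0 lay higher. JUN, JUNB and JUND lay close together in DMSO, at 35.1, 30.0 and 35.2 FPKM, followed by FOSL2 at 24.4 and FOS at 8.68. FOSB and ATF3 were scarce, at 2.15 and 2.48 FPKM in DMSO.

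The 4 FOS genes summed to 198 FPKM in the combination, 186 in paclitaxel, 171 in enzastaurin and 202 in DMSO. The 3 JUN genes summed to 74.4 FPKM in the combination, 103 in paclitaxel, 95.1 in enzastaurin and 100 in DMSO. FOSL1 made up 64.5% of the summed FPKM of all 8 genes in the combination, 53.1% in paclitaxel, 51.9% in enzastaurin and 54.8% in DMSO. Within the JUN family the shares of JUND and JUNB differed most between libraries. JUND was 10.9% of JUN-family FPKM in the combination, 23.5% in paclitaxel, 32.3% in enzastaurin and 35.1% in DMSO. JUNB made up 50.5%, 45.3%, 30.3% and 29.9% of the JUN family in the same libraries. JUN held 38.6% in the combination, 31.2% in paclitaxel, 37.4% in enzastaurin and 35.0% in DMSO.

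**Figure D1:**
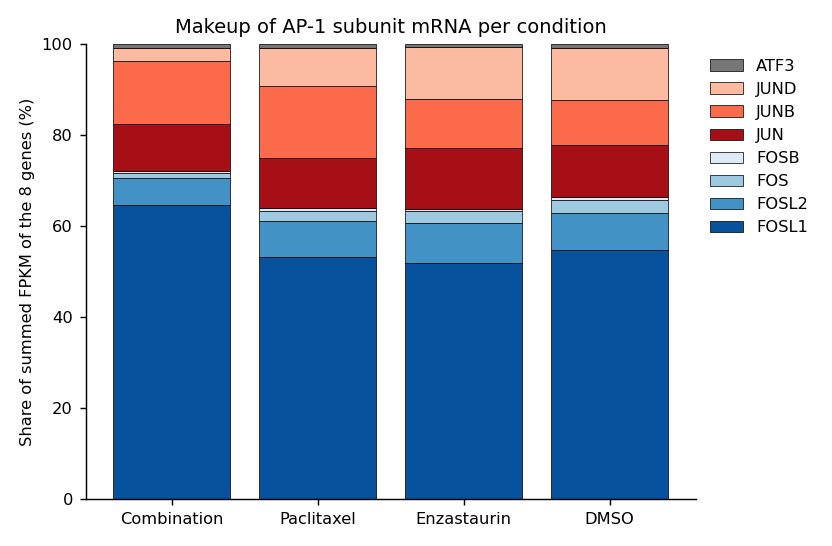
Share of the summed FPKM of the 8 genes (y axis, %) in the combination, paclitaxel, enzastaurin and DMSO libraries (x axis, 1 library each), stacked by gene with FOS proteins in blue, JUN proteins in red and ATF3 in grey. FOSL1 fills over 50% of each bar, and the JUND segment is 2.94% in the combination against 11.5% in DMSO.

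Of the JUN genes, JUND stood lowest in the combination by the widest margin. JUND (ENSG00000130522; hg38 chromosome 19, 18279760 to 18281622, minus strand) encodes the JUN protein usually made at a steady level in unstimulated cells. It had 166 counts in the combination, 725 in paclitaxel, 864 in enzastaurin and 1049 in DMSO. As levels these are 9.21 CPM (7.86 to 10.7) in the combination, 29.2 CPM (27.1 to 31.4) in paclitaxel, 39.1 CPM (36.6 to 41.8) in enzastaurin and 46.5 CPM (43.7 to 49.4) in DMSO. No interval overlapped another, so the order was the same by any pair of neighbours, with DMSO highest and the combination lowest.

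JUND was 3.17-fold lower in the combination than in paclitaxel, at -1.66 (-1.92 to -1.42) on the log2 scale, and only 98 of 11843 genes had a lower ratio. The ratio was -2.09 (-2.33 to -1.85) in combination over enzastaurin and -2.33 (-2.58 to -2.10) in combination over DMSO. Each drug alone gave a smaller difference that did not reach 2-fold. Over DMSO, JUND was at -0.67 (-0.81 to -0.53) with paclitaxel and at -0.25 (-0.38 to -0.12) with enzastaurin. JUND has the highest GC content of the 8 genes, 69.7% of its longest GENCODE 29 transcript. Across 9646 genes the rank correlation of the ratio with GC content was -0.476 in enzastaurin over DMSO and -0.344 in paclitaxel over DMSO. In combination over paclitaxel it was -0.061 with GC content and -0.235 with transcript length. With the trend of ratios in GC content and transcript length removed, JUND was at -1.62 in combination over paclitaxel, -0.52 in paclitaxel over DMSO and -0.05 in enzastaurin over DMSO.

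The deposited counts and FPKM of JUND did not move in step. Counts divided by FPKM and by the library total, an implied transcript length, came to 1.13 kb in the combination, 1.22 kb in paclitaxel, 1.28 kb in enzastaurin and 1.32 kb in DMSO. FOS, with 10 listed transcripts, gave 1.91 kb in the combination, 1.92 kb in paclitaxel, 1.70 kb in enzastaurin and 1.77 kb in DMSO. FOSB gave 3.41 kb in the combination and 2.93 kb in DMSO, and ATF3 gave 1.39 kb and 1.18 kb in these libraries. For the 1-exon gene JUNB the same quantity was 1.83 kb in every library. GENCODE 29 lists 2 JUND transcripts, and how reads were divided between them is not analysed here. In FPKM JUND stood at 8.09 in the combination, 24.2 in paclitaxel, 30.7 in enzastaurin and 35.2 in DMSO, which keeps the order given by counts.

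JUNB was the one subunit whose level was higher with paclitaxel beyond counting error, whether or not enzastaurin was present. JUNB (ENSG00000171223; chromosome 19, 12791496 to 12793315, plus strand) encodes a JUN protein that activates less strongly than JUN and can compete with it. It had 1255 counts in the combination, 2099 in paclitaxel, 1159 in enzastaurin and 1240 in DMSO. In CPM these were 69.6 (65.8 to 73.6), 84.5 (80.9 to 88.1), 52.5 (49.5 to 55.6) and 54.9 (51.9 to 58.1) in the same libraries. Both libraries with paclitaxel lay above both without it, and the enzastaurin and DMSO libraries did not differ beyond counting error.

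For paclitaxel over DMSO JUNB reached 0.62 (0.52 to 0.72) on the log2 scale, and only 262 of 11843 genes stood higher there. It was 0.41 (0.29 to 0.52) when the combination was set over enzastaurin, a comparison between 2 other libraries. In combination over paclitaxel it was -0.28 (-0.38 to -0.18). None of these reached 2-fold. The JUNB gene overlaps HOOK2 on the opposite strand in GENCODE 29, and the sources used here do not say whether the counting used strand. HOOK2 had 141 counts in the combination, 237 in paclitaxel, 222 in enzastaurin and 214 in DMSO, and stood at 0.01 (-0.26 to 0.28) in paclitaxel over DMSO.

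JUN varied little. JUN (ENSG00000177606; chromosome 1, 58780788 to 58784327, minus strand), the founding member of the family and the main target of JUN N-terminal kinases, had 1542 counts in the combination, 2346 in paclitaxel, 2314 in enzastaurin and 2354 in DMSO. Scaled for depth these are 85.6 CPM (81.3 to 89.9), 94.4 CPM (90.6 to 98.3), 104.8 CPM (100.6 to 109.2) and 104.2 CPM (100.1 to 108.5). Both paclitaxel libraries lay below both libraries without it, and enzastaurin and DMSO could not be separated, at 0.01 (-0.08 to 0.09). The log2 ratio was -0.14 (-0.24 to -0.05) in combination over paclitaxel and -0.29 (-0.39 to -0.20) in combination over enzastaurin. With the GC and length trend removed these were -0.05 and -0.21, and the value for combination over DMSO was -0.14, against -0.28 (-0.38 to -0.19) before removal.

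**Figure D2:**
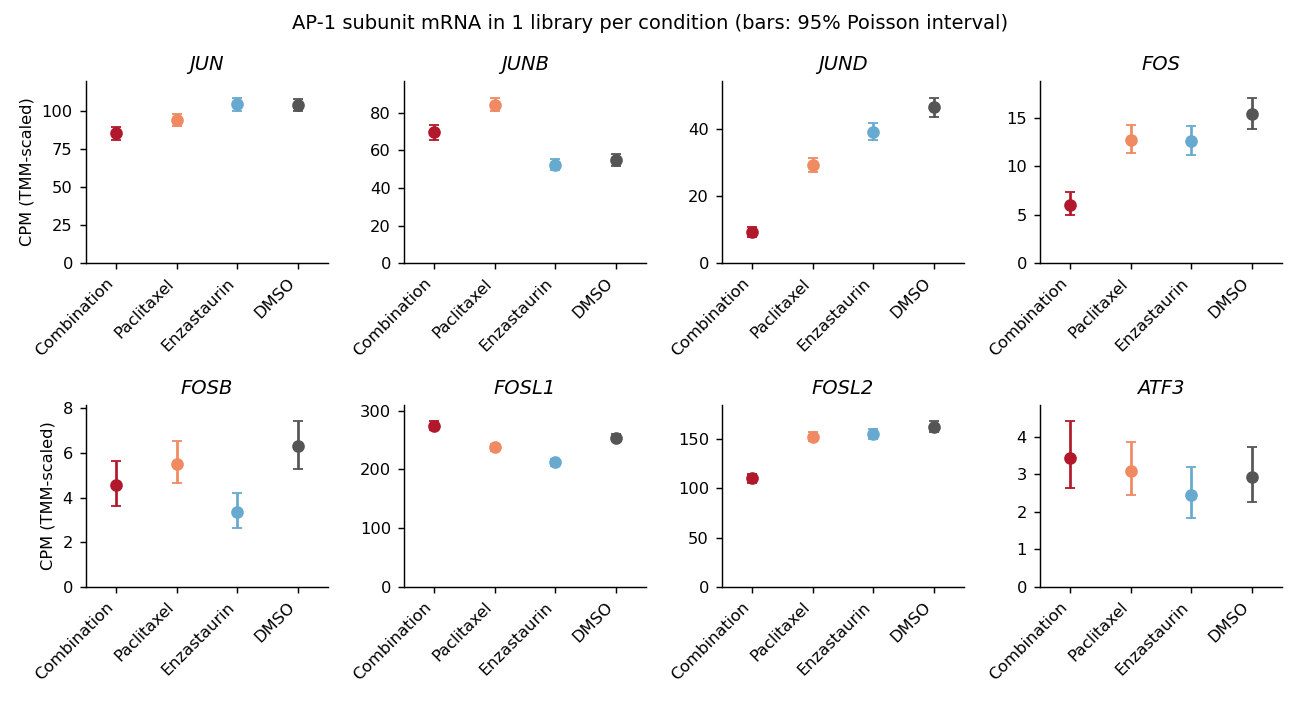
TMM-scaled CPM (y axis from 0) of each of the 8 genes in the combination, paclitaxel, enzastaurin and DMSO libraries (x axis); points are the single library of each condition and bars the 95% Poisson interval, which covers counting error only. JUND and FOS are lowest in the combination, at 9.21 and 6.05 CPM, JUNB is highest in paclitaxel at 84.5 CPM, and the ATF3 intervals overlap.

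Of the FOS genes, FOS itself was lowest in the combination and near the same level with either drug alone. FOS (ENSG00000170345; chromosome 14, 75278774 to 75282230, plus strand), the classical early-response subunit, had 109 counts in the combination, 316 in paclitaxel, 278 in enzastaurin and 347 in DMSO. These correspond to 6.05 CPM (4.97 to 7.30), 12.7 CPM (11.3 to 14.2), 12.6 CPM (11.1 to 14.2) and 15.4 CPM (13.8 to 17.1). The combination interval lay below the other three, and paclitaxel and enzastaurin did not differ beyond counting error.

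FOS was 2.10-fold lower in combination over paclitaxel, with a log2 ratio of -1.07 (-1.40 to -0.75). It was at -1.06 (-1.39 to -0.73) in combination over enzastaurin and at -1.35 (-1.67 to -1.03) in combination over DMSO. The single drugs gave -0.27 (-0.50 to -0.05) for paclitaxel and -0.29 (-0.52 to -0.06) for enzastaurin, each over DMSO. On the deposited FPKM with a pseudocount of 1, the log2 ratio of FOS in combination over paclitaxel was -0.89, just short of 2-fold, and with a pseudocount of 0.1 it was -1.06.

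FOSL1 was highest in the combination although each single drug left it below DMSO. FOSL1 (ENSG00000175592; chromosome 11, 65892049 to 65900573, minus strand) lacks the strong C-terminal activation domain of FOS. It had 4942 counts in the combination, 5904 in paclitaxel, 4681 in enzastaurin and 5741 in DMSO. The levels were 274 CPM (267 to 282) in the combination, 238 CPM (232 to 244) in paclitaxel, 212 CPM (206 to 218) in enzastaurin and 254 CPM (248 to 261) in DMSO. Each library differed from the next in order beyond counting error, but by under 2-fold throughout.

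The log2 ratio of FOSL1 was 0.21 (0.15 to 0.26) in combination over paclitaxel and 0.37 (0.31 to 0.43) in combination over enzastaurin. Set over DMSO, paclitaxel gave -0.10 (-0.15 to -0.05) and enzastaurin -0.26 (-0.32 to -0.21). Enzastaurin thus went with less FOSL1 mRNA without added paclitaxel and with more in its presence. With the GC and length trend removed the paclitaxel over DMSO value shrank to -0.03 and the enzastaurin over DMSO value to -0.15. With 1 library each, how far these small differences exceed culture-to-culture variation is not known.

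FOSL2 was lower in the combination than in the other three libraries, which lay close together. FOSL2 (ENSG00000075426; chromosome 2, 28392448 to 28417312, plus strand), which encodes FRA-2, had 1981 counts in the combination, 3789 in paclitaxel, 3414 in enzastaurin and 3671 in DMSO. Its levels were 110 CPM (105 to 115), 152 CPM (148 to 157), 155 CPM (149 to 160) and 163 CPM (157 to 168). The ratios were -0.47 (-0.55 to -0.39) in combination over paclitaxel, -0.49 (-0.57 to -0.41) in combination over enzastaurin and -0.56 (-0.64 to -0.48) in combination over DMSO. FOSL2 has the longest transcript of the 8 genes, 6708 bases, and with the GC and length trend removed it stood at -0.31, -0.32 and -0.38 in these comparisons.

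FOSB was the subunit with the largest difference under enzastaurin alone. FOSB (ENSG00000125740; chromosome 19, 45467995 to 45475179, plus strand), an early-response subunit close to FOS in structure, had 82 counts in the combination, 137 in paclitaxel, 74 in enzastaurin and 142 in DMSO. It was 1.88-fold lower in enzastaurin over DMSO, at -0.91 (-1.33 to -0.49), and 87 of 11843 genes stood lower there. With paclitaxel present the ratio for enzastaurin was -0.28 (-0.69 to 0.13). No neighbouring pair of conditions in the order of FOSB levels differed beyond counting error. FOSB overlaps ERCC1 on the opposite strand, and ERCC1 had 1212 counts in the combination, 1907 in paclitaxel, 1628 in enzastaurin and 1838 in DMSO, more than FOSB in each. ERCC1 was at -0.14 (-0.24 to -0.05) in enzastaurin over DMSO, and the share of its reads in the FOSB counts was not tested.

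ATF3 could not be separated between any neighbouring conditions at this depth. ATF3 (ENSG00000162772; chromosome 1, 212565334 to 212620777, plus strand) is induced by many stresses and represses transcription as a homodimer. It had 62 counts in the combination, 77 in paclitaxel, 54 in enzastaurin and 66 in DMSO. Its largest ratio was 0.49 (-0.06 to 1.05) in combination over enzastaurin.

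**Figure D3:**
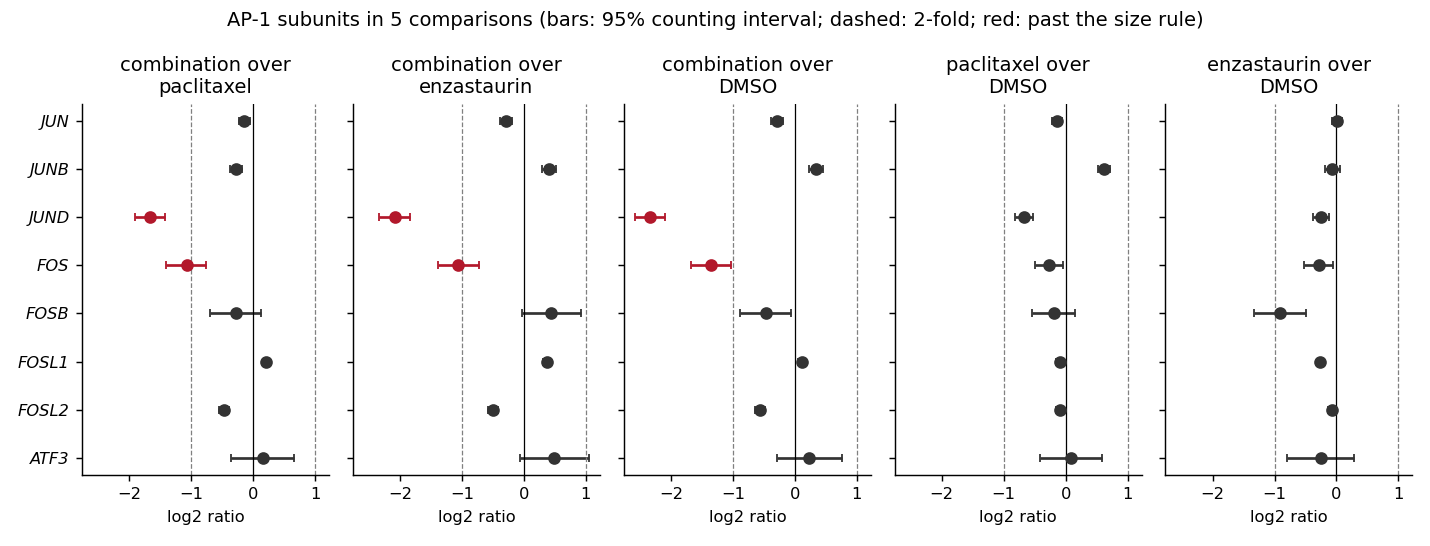
Log2 ratio (x axis) of each of the 8 genes (rows) in the 5 comparisons (panels), with 95% counting intervals; dashed lines mark 2-fold and red points pass the 2-fold rule. JUND and FOS are red in the 3 comparisons that have the combination on top, and no gene is red for either drug alone.

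The 8 genes can be set against all genes tested. In combination over paclitaxel, where both libraries had 500 nM paclitaxel and one also had enzastaurin, 2 of 8 members were 2-fold or more lower and 0 higher, against 4.17% of all genes lower, 0.574% higher and 4.75% in either direction. The interval lay below no change for 5 members and above it for 1, against 30.7% and 27.8% of all genes. Intervals narrow as counts rise, so such shares depend on depth. In none of the comparisons were members and all genes matched for it. The median log2 ratio of the members was -0.28, beside -0.02 for all genes. In combination over enzastaurin 2 members were 2-fold lower and 0 higher, against 5.43% and 0.929% of genes, or 6.36% in either direction. The interval lay below no change for 4 and above it for 2, against 32.5% and 30.3%. The median there was 0.04, beside -0.02 for all genes.

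In combination over DMSO 2 members were 2-fold lower and 0 higher, against 5.53% and 1.01% of genes, or 6.54% in either direction. There 5 intervals lay below no change and 2 above, against 32.7% and 29.8%. The members' median was -0.38, beside -0.03 for all genes. The members past the 2-fold rule were JUND and FOS each time, and these 3 comparisons share the combination library. In paclitaxel over DMSO 0 of 8 members passed the rule in either direction, against 1.24% of genes (0.811% higher and 0.431% lower), with 5 intervals below no change and 1 above, against 17.1% and 15.9%. The median was -0.12 for the members and 0.00 for all genes. In enzastaurin over DMSO 0 of 8 passed, against 0.887% of genes (0.439% higher and 0.448% lower), and 5 intervals lay below no change and 0 above, against 15.8% and 15%. The members' median was -0.25 beside 0.00 for all genes. These ratios followed GC content over all genes, with a rank correlation of -0.476. With the GC and length trend removed they were 0.07 for JUN, 0.08 for JUNB, -0.05 for JUND and -0.23 for FOS. The values for FOSB, FOSL1, FOSL2 and ATF3 were then -0.84, -0.15, -0.06 and -0.24.

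**Figure D4:**
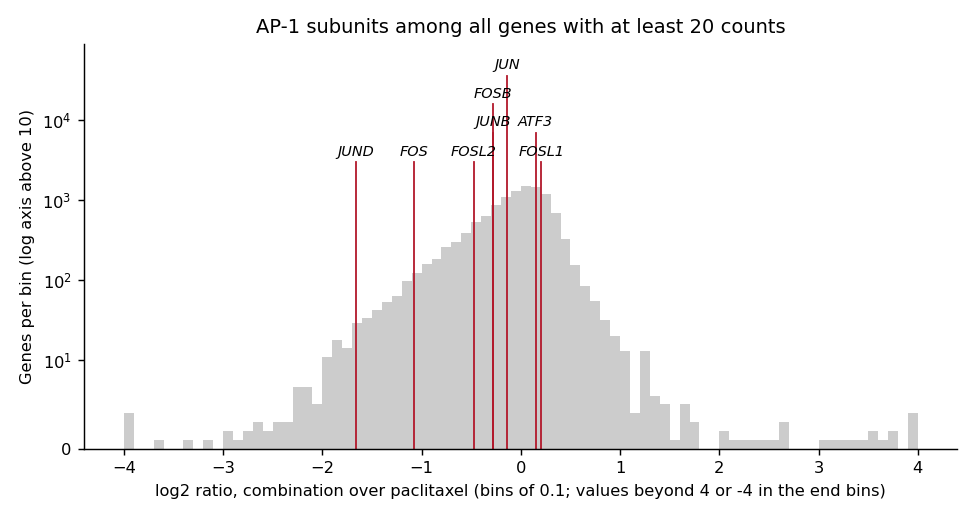
Number of genes per bin of 0.1 (y axis, log scale above 10) by log2 ratio in combination over paclitaxel (x axis) for genes with at least 20 counts, with the 8 AP-1 subunits marked by red lines. JUND, at -1.66, and FOS, at -1.07, lie in the lower tail, while the other 6 lie between -0.47 and 0.21.

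The 4 conditions form a layout of both drugs, so the combination can be set against the sum of the single-drug log2 ratios. The intervals here come from the counts of all 4 libraries. For JUND the single drugs summed to -0.92 and the combination was at -2.33 over DMSO, a difference of -1.42 (-1.69 to -1.14). For FOS the sum was -0.56 against -1.35 measured, a difference of -0.78 (-1.17 to -0.40). FOSL2 differed by -0.40 (-0.50 to -0.30), JUNB by -0.21 (-0.37 to -0.06) and JUN by -0.15 (-0.27 to -0.02). These 5 were lower in the combination than the sum. Many other genes had a lower difference than most of them. The share of genes below was 8.58% for FOS, 20.8% for FOSL2, 32.0% for JUNB and 37.4% for JUN.

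FOSL1 lay on the other side, with a sum of -0.36 against 0.11 measured, a difference of 0.47 (0.39 to 0.55). FOSB was also higher than its sum, by 0.63 (0.07 to 1.20), from few counts. On the deposited FPKM the FOSB difference was 0.34 with a pseudocount of 1 and 0.51 with 0.1. ATF3 gave 0.41 (-0.30 to 1.12), which spans no difference. The median of this difference over the 11813 genes with no count of 0 was -0.02, and 1.94% of them lay below JUND and 93.8% below FOSL1. With the GC and length trend removed the difference was 0.34 for FOSL1 and -0.25 for FOSL2.

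**Figure D5:**
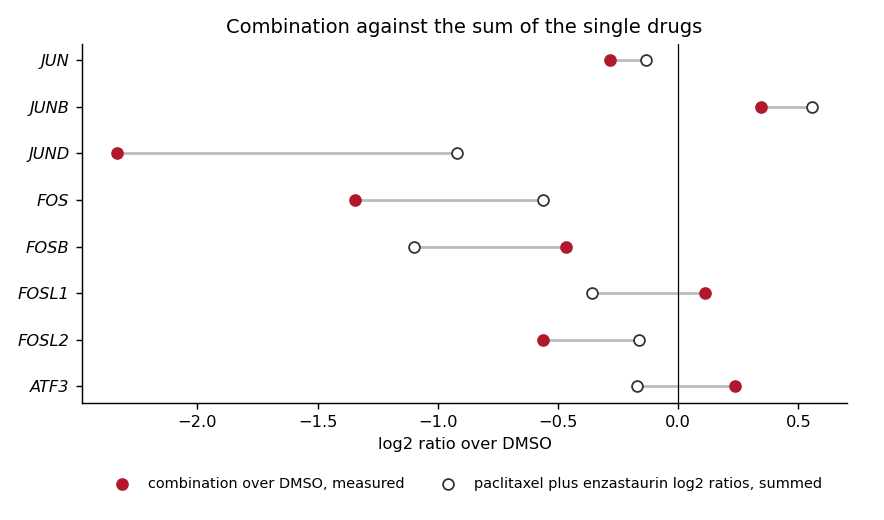
Log2 ratio over DMSO (x axis) of each of the 8 genes (rows): filled points are the combination as measured and open points the sum of the paclitaxel and enzastaurin ratios, 1 library per condition. The filled point lies left of the open one for JUN, JUNB, JUND, FOS and FOSL2, most for JUND (-2.33 against -0.92), and right of it for FOSB, FOSL1 and ATF3.

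The bases before the start sites of JUND, FOS and JUNB are shown because these genes have the lowest ratios in the combination and the highest one in paclitaxel alone. Windows of 250 bases before the RefSeq start (GRCh38.p14) were available for 7 of the 8 genes. Printed stretches leave out bases that GENCODE 29 places inside a transcript, which shortens FOS to 196 bases; all run 5′ to 3′ on the gene's strand. The searched motifs, on both strands, were the cyclic AMP response element TGACGTCA, its variant TGACATCA, the core TGACG that also lies within the full element, the AP-1 site TGANTCA, the CCAAT box, the TATA box with letters TATAAA, and the CArG box. Capitals mark each match within the printed stretches. The stretches lie at chr19:18281623-18281872 (minus strand) for JUND, chr14:75278578-75278773 (plus strand) for FOS and chr19:12791236-12791485 (plus strand) for JUNB.
JUND: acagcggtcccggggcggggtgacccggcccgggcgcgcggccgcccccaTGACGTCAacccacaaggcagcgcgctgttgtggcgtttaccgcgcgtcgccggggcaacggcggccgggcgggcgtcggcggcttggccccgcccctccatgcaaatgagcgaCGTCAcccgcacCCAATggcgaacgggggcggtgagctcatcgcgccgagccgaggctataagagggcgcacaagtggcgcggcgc
FOS: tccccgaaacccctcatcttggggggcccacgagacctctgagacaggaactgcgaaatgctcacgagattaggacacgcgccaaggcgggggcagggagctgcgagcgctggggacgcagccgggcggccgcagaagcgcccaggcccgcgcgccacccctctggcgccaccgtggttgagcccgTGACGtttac
JUNB: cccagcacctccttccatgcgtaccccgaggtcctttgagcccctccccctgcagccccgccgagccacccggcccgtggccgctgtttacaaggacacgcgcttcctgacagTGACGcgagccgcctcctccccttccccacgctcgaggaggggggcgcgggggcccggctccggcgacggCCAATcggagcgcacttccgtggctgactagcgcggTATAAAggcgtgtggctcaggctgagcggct

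The core TGACG occurred in 6 of the 7 genes and in 21.2% of all 35116 promoter windows. The exception was ATF3, which had windows at separate starts, none with a match. The CCAAT box occurred in 4 of the 7 genes, against 32.0% of all windows, and TATAAA in 4, against 10.7%. The genes with TATAAA were ATF3, FOS, FOSB and JUNB. In FOS it began 33 bases before the start, among the bases not printed. In ATF3 it began 230 bases before 1 of its starts. ATF3, with more than 1 window, had more room for a match than a single window. JUND was the only one of the 7 with the full TGACGTCA, 200 bases before its start, a motif held by 1.65% of all windows. JUN and ATF3 held TGACATCA, a TPA response element that resembles the cyclic AMP one, found in 2.37% of windows. In JUN it began 67 bases before the start. The AP-1 site in the form TGANTCA occurred in 0 of the 7, against 6.57% of all windows, and so did the CArG box, against 1.16%. Sequence outside these 250-base windows was not searched, so sites further from a start would be missed. The JUND window was 74.8% G and C, above 89.2% of all windows. These matches describe letters and not bound sites.

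Of the kinases upstream of AP-1, which relay stress and growth signals to JUN, FOS and their promoters, 16 of 17 listed genes had enough counts. In combination over paclitaxel 0 were 2-fold higher and 2 lower, against 0.574% and 4.17% of all genes, and the median was -0.08 beside -0.02 for all genes. RPS6KA5, which encodes the nuclear kinase MSK1, had 32 counts in the combination, 113 in paclitaxel, 69 in enzastaurin and 92 in DMSO, with a ratio of -1.36 (-1.97 to -0.78). MAPK11, which encodes p38 beta, had 20, 57, 46 and 69 counts in the same libraries, with a ratio of -1.05 (-1.86 to -0.29). The same number, 2 lower, passed in combination over DMSO, against 5.53% of all genes, and 0 in the other 3 comparisons.

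Of 17 other basic leucine zipper partners, 14 had enough counts. In combination over paclitaxel 0 of them passed the 2-fold rule, against 4.75% of all genes. The largest ratios were those of DDIT3, which encodes CHOP, at 0.45 (0.13 to 0.76), and ATF2, a JUN partner, at 0.40 (0.28 to 0.53). DDIT3 had 168 counts in the combination, 170 in paclitaxel, 89 in enzastaurin and 88 in DMSO, and was 2-fold higher in combination over enzastaurin, at 1.21 (0.83 to 1.60), and over DMSO, at 1.26 (0.88 to 1.65). DDIT3 was the 1 gene of this list 2-fold higher in each, against 0.929% and 1.01% of all genes. In enzastaurin over DMSO 1 gene of this list passed the rule, against 0.887% of all genes. This was BATF2, named after its value was seen, with 8 counts in enzastaurin and 25 in DMSO. All 11 factors that act at the JUN and FOS promoters had enough counts and 0 passed the rule in any of the 5 comparisons. The share of all genes past it ran from 0.887% to 6.54%, so 0 of 11 is near that share. The largest ratios of these factors in combination over paclitaxel were those of ATF1 at 0.33 (0.17 to 0.50) and MEF2D at -0.33 (-0.47 to -0.19).

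Of 10 genes for turnover of AP-1 transcripts and proteins, 1 was 2-fold lower in combination over paclitaxel and 0 higher, against 4.17% and 0.574% of all genes. Their median was 0.02, beside -0.02 for all genes. ZFP36, which encodes tristetraprolin, an mRNA decay factor with FOS transcripts among its targets, had 374 counts in the combination, 1266 in paclitaxel, 1044 in enzastaurin and 1063 in DMSO. Its ratio was -1.30 (-1.47 to -1.13) in combination over paclitaxel, and in paclitaxel over DMSO it was 0.11 with an interval that spans no change. It was also the 1 gene of this list past the rule in the other 2 comparisons with the combination on top. There 5.43% of all genes were 2-fold lower over enzastaurin and 5.53% over DMSO. All of these comparisons use the 1 combination library.

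Of 18 genes reported as AP-1 targets, 13 had enough counts, and in combination over paclitaxel 1 was 2-fold higher and 0 lower, against 0.574% and 4.17% of all genes. MMP3, the stromelysin gene, had 30 counts in the combination, 18 in paclitaxel, 13 in enzastaurin and 5 in DMSO, and its ratio was 1.20 (0.31 to 2.13). In combination over enzastaurin and over DMSO 2 of the 13 were 2-fold higher, against 0.929% and 1.01% of all genes. They were MMP3 and the collagenase gene MMP1, named after its value was seen. MMP1 had 53 counts in the combination, 38 in paclitaxel, 12 in enzastaurin and 22 in DMSO, with ratios of 2.44 (1.51 to 3.48) over enzastaurin and 1.59 (0.85 to 2.38) over DMSO. The list's median log2 ratio was -0.10 in combination over paclitaxel, 0.29 in combination over enzastaurin and -0.13 in combination over DMSO, beside -0.02, -0.02 and -0.03 for all genes. It was 0.02 for paclitaxel and -0.25 for enzastaurin, each set over DMSO, beside 0.00 for all genes in both.

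The genes with the most similar profile were sought by the distance between the 3 log2 ratios over DMSO, among 9136 other genes whose counts averaged 200 or more. Nearest to JUND were CCN1 at a distance of 0.21, CRISPLD2 at 0.22 and EHD2 at 0.25. CCN1 had 1010 counts in the combination, 5147 in paclitaxel, 6138 in enzastaurin and 7371 in DMSO. Nearest to FOS were GARRE1, PGGHG and CCDC71, at 0.11 to 0.12. Nearest to FOSL1 were WRAP73, C12orf57 and VASP, at 0.01 to 0.02. These distances rest on 4 libraries and share the DMSO library. RNA was taken from whole cultures, so fewer cells with a transcript and less of it per cell cannot be told apart.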

How the data were processed

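Total RNA was primed at random for cDNA and read on an Illumina instrument, per the labels. The authors deposited 1 table of expected counts, estimated per gene and not scaled for depth, and FPKM values scaled by the authors for length and library size. RSEM and hg38 are named in the submitters' processing notes; of the aligner, versions, strand setting and annotation the sources used here say nothing. Columns were matched to the 4 conditions by drug name, and Ctrl was taken as DMSO.

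Expected counts were rounded. TMM factors came from edgeR 4.0.16 (R 4.3.3), and alternative size factors from DESeq2 1.42.0; no p was computed with either. CPM used the library total times its TMM factor. Ratio intervals are 95% Clopper-Pearson conditional intervals, and intervals of the difference from additivity use the normal approximation. Intervals cover counting error only, because each condition had 1 library. Reads lacking molecular identifiers need not stand for separate molecules, so the intervals may be too narrow even for counting error. A count of 0 was set to 3 counts. The trend in GC content and length was a cubic fit over 9646 genes with at least 100 counts in every library, using the longest GENCODE 29 transcript (matched for 99.7% of genes tested and all 8 members). The ratio rule was checked on counts simulated with counting error alone, so that check could not cover variation between cultures or libraries. Other tools were matplotlib 3.10.9, pandas 2.3.3, scipy 1.17.1, numpy 2.4.6 and Python 3.11.15.

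The members and gene lists were chosen with earlier results of these data known. All 8 members are named; in each list, up to 4 genes past the 2-fold rule in combination over paclitaxel are named, or otherwise the 2 with the largest ratio, and the 3 nearest profiles are given for JUND, FOS and FOSL1. Protein sequences are not used here.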

Additional observations from a re-analysis of the deposited data

Results flagged for a closer look

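FOSL1 was flagged for a difference of 1 sign with each drug alone and of the opposite sign in the presence of the other drug. All 4 counting intervals excluded no change. For enzastaurin the log2 ratio was 0.21 with paclitaxel and -0.26 without it, and for paclitaxel it was 0.37 with enzastaurin and -0.10 without it, a difference of 0.47 either way. With the GC and length trend removed, the paclitaxel value without enzastaurin was only -0.03. Of 11813 genes, 93.8% had a lower difference than FOSL1, so many genes had a higher one. The share of all genes that meet the sign criterion is not given here. The 3 genes named for a profile like that of FOSL1 met the same criterion for enzastaurin, with differences of 0.46 for WRAP73, 0.43 for C12orf57 and 0.43 for VASP; they were picked for that likeness. With 1 library per condition the difference between the 2 settings was not tested.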

How the results depend on the processing

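No paired analysis was possible because the conditions have single libraries, so none could be left out either. With scaling by DESeq2 size factors or by library size, with no count minimum, a minimum of 100 counts, FPKM with a pseudocount of 0.1, or removal of the GC and length trend, the counts of members past the 2-fold rule stayed at 2, 2, 2, 0 and 0 in combination over paclitaxel, over enzastaurin, over DMSO, paclitaxel over DMSO and enzastaurin over DMSO. With FPKM and a pseudocount of 1, 1 member passed in combination over paclitaxel, and a fold limit of 1.5 gave 2 members in paclitaxel over DMSO and 1 in enzastaurin over DMSO. No ratio of a member whose interval excluded no change took the opposite sign under these alternatives. The FOSL1 and FOSL2 differences from additivity came to 0.34 and -0.25 with the trend removed.

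The number of all genes past the rule, 562, 753, 775, 147 and 105 in the same order, became 186, 277, 310, 27 and 20 with FPKM and a pseudocount of 1. It became 307, 441, 481, 26 and 12 with a minimum of 100 counts, and 1545, 1985, 1979, 321 and 274 with a fold limit of 1.5. With no count minimum it was 262 in paclitaxel over DMSO and 220 in enzastaurin over DMSO. The FPKM alternatives use the fold and the count minimum without an interval. Depth limits FOSB and ATF3, which had 54 to 142 counts.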
